A study of Mus musculus with 16 samples.

Results

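Messenger RNA was sequenced from heads of mouse embryos at embryonic day 8.5, and the counts of 9 genes for the synthesis of nonessential amino acids were followed across diet and genotype. The 9 genes are Phgdh, Psat1 and Psph of the serine pathway, Asns, Got1 and Gpt2, which make asparagine, aspartate and alanine, Aldh18a1 and Pycr1 of the proline pathway, and Pck2, which joins mitochondrial oxaloacetate to the same pool of intermediates. They were chosen by symbol from the 24421 genes counted, with earlier results of these data known. All 9 passed the filter on low counts, as did 14514 genes in all. The series set out to examine what folic acid supplementation does to cilia. The groups were homozygous IFT88-null embryos and wild type embryos, each from families kept for 3 generations on a moderate diet with 2 ppm folic acid or an enriched diet with 10 ppm, with 4 libraries in each of the 4 groups. Ift88 encodes a subunit of the intraflagellar transport particles that build cilia. The labels give the sex of each embryo but no strain, allele construction or litter, and tissue ran from the first branchial arch to just above the otic vesicle. No label ties embryos to litters. The p-values below set each group difference against the spread among these libraries, which may be partly technical. They take the libraries as independent, which embryos from a shared litter might not be.

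Serine is made from an intermediate of glycolysis by Phgdh, Psat1 and Psph in turn, and it feeds glycine and the carbon units carried by folate. Aldh18a1 and Pycr1 turn glutamate into proline, an abundant residue of collagen, while aminotransferases such as Got1 and Gpt2 move nitrogen between glutamate and the acids of the citrate cycle. Many of these genes are known targets of the transcription factor Atf4, whose protein is made in larger amounts when amino acids run short or unfolded proteins build up.

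Totals assigned to genes were 19249433 to 44267434 counts per library. Levels are given as CPM, the count scaled to the library total, and each printed CPM value of the 9 genes rests on at least 276 counts in its library. Ift88 stood at 3.35, 6.44, 2.01 and 3.44 CPM in moderate mutants, against 19.9, 9.30, 20.9 and 20.7 CPM in moderate wild type, and at 2.99, 8.61, 2.86 and 5.25 CPM in enriched mutants, against 19.0, 20.7, 17.9 and 20.8 CPM in enriched wild type. Moderate wild type replicate 2 thus lay well below the other wild type libraries, though above every mutant. The log2 fold change of Ift88 was -2.22 ± 0.35 (adjusted p = 0.000927) on the moderate diet and -1.97 ± 0.34 (adjusted p = 0.000822) on the enriched diet. Moderate mutant replicate 3 stood apart from the other 7 mutants: on the first principal component, which held 47.6% of the variance of 500 genes, it lay at -3.66, the other mutants between 14.7 and 23.7, and wild type between -19.3 and -12.6. Its Ift88 level was nevertheless the lowest of all libraries. In 3 libraries, all on the moderate diet, the labelled sex went against the sex-linked counts. These were mutant replicates 1 and 2 and wild type replicate 2, the wild type library with the low Ift88 level. All 12 head and neural markers examined were detected in every library, with summed levels of 1176 to 1374 CPM in mutants and 1245 to 1300 CPM in wild type. By the edgeR test used below, none of the 12 passed on the moderate diet. On the enriched diet 2 were called higher in mutants, where 14.4% of all genes tested were, and neither call held under every alternative fit.

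The promoters of 4 of the 9 genes held a sequence of the form TGATGNAA, where N is any base, and are shown because this is the core of the amino acid response element, the form of site that Atf4 and its C/EBP partners are known to bind. In the human ASNS promoter an element of this form is known as a nutrient-sensing response element. The sequences are the RefSeq promoters of the assembly GRCm38.p6, from 250 bases before to 50 bases after the annotated start, read 5′ to 3′ along the gene, and capitals mark the match on either strand. Asns lies on the minus strand (chr6:7693160-7693459), Pck2 on the plus strand (chr14:55540016-55540315), and Pycr1 (chr11:120643699-120643998) and Got1 (chr19:43524556-43524855) on the minus strand.
Asns: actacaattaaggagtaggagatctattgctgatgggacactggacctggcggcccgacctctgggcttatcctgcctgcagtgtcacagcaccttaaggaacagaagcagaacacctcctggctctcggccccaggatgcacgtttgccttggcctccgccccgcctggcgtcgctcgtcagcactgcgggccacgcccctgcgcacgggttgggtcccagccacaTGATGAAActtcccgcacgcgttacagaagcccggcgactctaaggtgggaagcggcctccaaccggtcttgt
Pck2: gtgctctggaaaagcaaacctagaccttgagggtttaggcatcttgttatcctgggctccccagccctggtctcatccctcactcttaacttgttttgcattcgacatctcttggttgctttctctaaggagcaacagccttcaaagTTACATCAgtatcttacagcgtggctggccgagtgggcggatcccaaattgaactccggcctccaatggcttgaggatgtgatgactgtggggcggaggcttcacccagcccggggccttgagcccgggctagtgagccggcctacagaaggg
Pycr1: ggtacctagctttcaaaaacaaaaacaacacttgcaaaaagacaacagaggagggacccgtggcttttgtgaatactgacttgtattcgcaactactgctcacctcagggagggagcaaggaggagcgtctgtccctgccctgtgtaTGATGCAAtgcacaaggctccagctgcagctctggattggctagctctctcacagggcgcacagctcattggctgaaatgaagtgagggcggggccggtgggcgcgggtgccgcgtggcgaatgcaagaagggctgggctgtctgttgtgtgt
Got1: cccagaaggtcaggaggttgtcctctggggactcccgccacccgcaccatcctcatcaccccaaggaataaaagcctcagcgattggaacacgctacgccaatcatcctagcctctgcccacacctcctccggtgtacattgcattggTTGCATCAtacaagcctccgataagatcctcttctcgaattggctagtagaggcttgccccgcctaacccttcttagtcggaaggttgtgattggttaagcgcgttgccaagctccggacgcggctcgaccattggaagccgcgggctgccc
The match began 23 bases before the start in Asns and 103, 103 and 102 bases before it in Pck2, Pycr1 and Got1. In Asns and Pycr1 it read along the gene (TGATGAAA and TGATGCAA), in Pck2 and Got1 on the other strand (TGATGTAA and TGATGCAA). Of 32841 promoters in the table, 1303 or 3.97% held the form, and among the 10 promoters listed for the 9 genes, Psat1 having 2, it was found in 4. The core of the hypoxia response element, ACGTG, was held by 19.6% of all promoters and by 4 of the 10, those of Asns, Psph and Aldh18a1 and 1 of the 2 of Psat1. It did not overlap the first form in any of them. Such matches describe letters and not bound sites, and a promoter without one shows only that these letters are absent from this window.

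**Figure D1:**
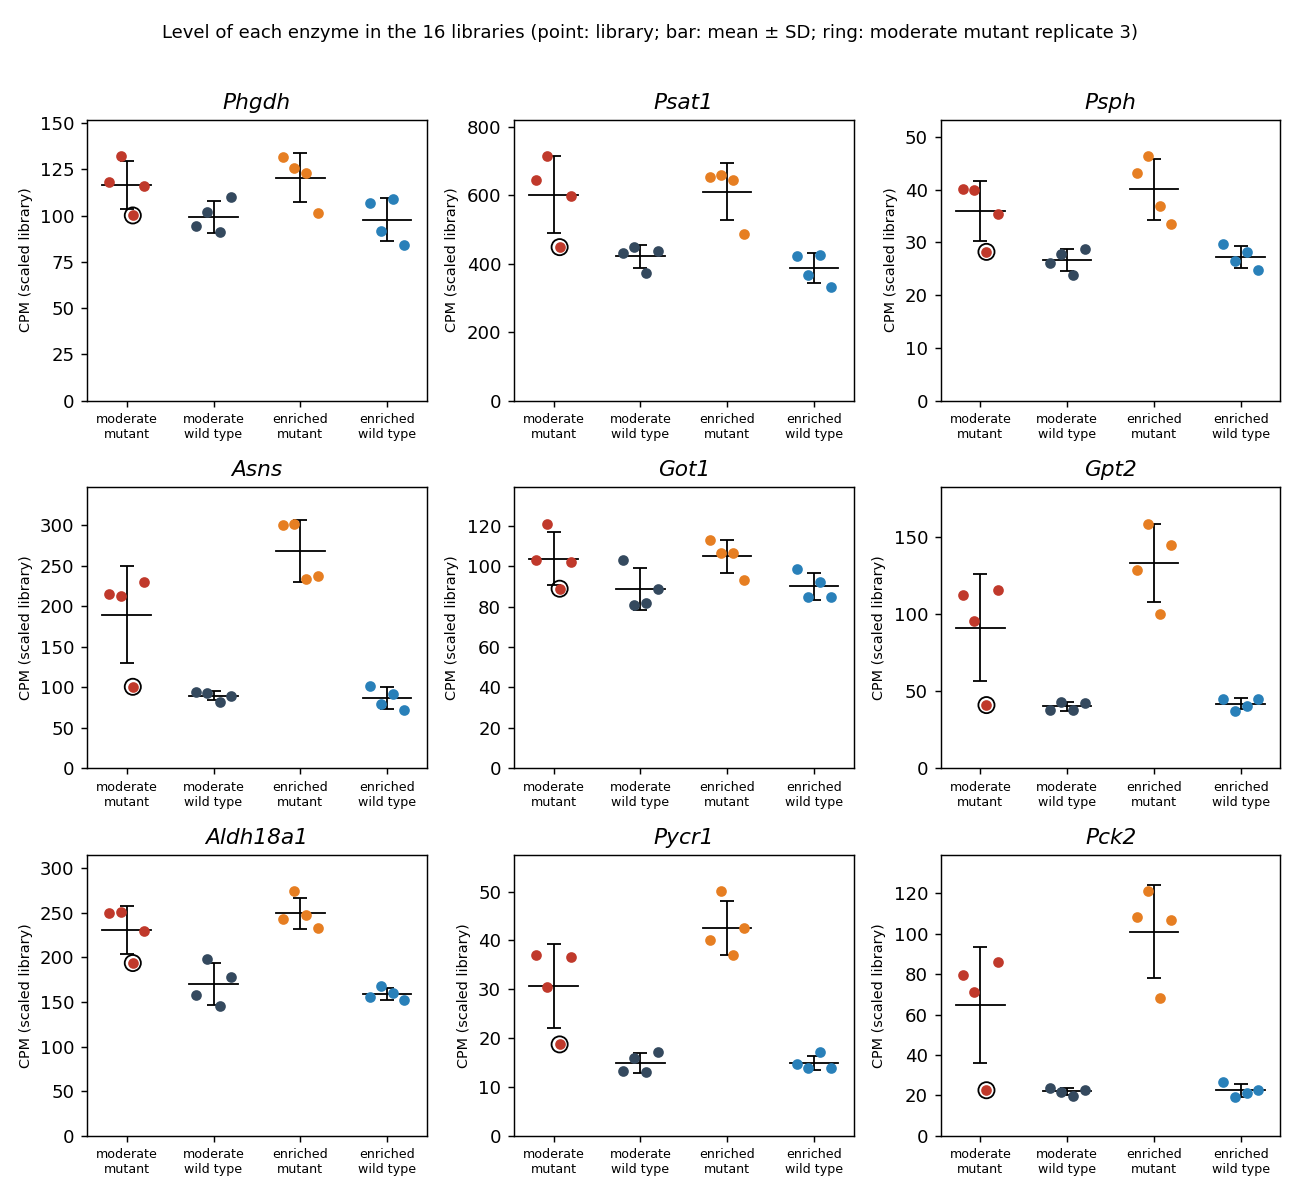
Level of each of the 9 genes in CPM (vertical axis, starting at 0) in the 4 groups on the horizontal axis; each point is a library, the bar shows the mean and SD of 4, and a ring marks moderate mutant replicate 3. Asns, Gpt2, Pycr1 and Pck2 sit far above wild type in 7 of the 8 mutant libraries, while the ringed library lies close to wild type.

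Levels between genes were compared per kilobase of exon. In the 8 wild type heads, Psat1 led with 95.2 ± 9.66 CPM per kb (SD, n = 8), followed by Aldh18a1 at 40.4 ± 4.16, Phgdh at 39.7 ± 3.87, Got1 at 35.2 ± 3.21 and Asns at 32.2 ± 3.52 CPM per kb. Gpt2 at 7.27 ± 0.579, Psph at 6.23 ± 0.462, Pycr1 at 3.78 ± 0.423 and Pck2 at 2.85 ± 0.295 CPM per kb formed the lower end. The libraries of neighbours overlapped from Aldh18a1 to Asns, between Gpt2 and Psph and between Pycr1 and Pck2, so these orders lie within the spread. With coding length in place of exon length, Got1 at 72.1 CPM per kb stood next to Psat1 and Psph at 39.9 CPM per kb above Gpt2 at 26.2. In the 8 mutant heads Psat1 still led with 142.6 ± 21.6 CPM per kb, and Asns came next with 83.7 ± 22.9 CPM per kb. Pck2 reached 10.6 ± 3.96 CPM per kb and Pycr1 9.29 ± 2.33 CPM per kb there.

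On the moderate diet 7 of the 9 genes were higher in mutants at an adjusted p under 0.05, by the edgeR quasi-likelihood test with Benjamini-Hochberg adjustment over all 14514 genes, where 4.79% of all genes tested passed in this direction. The 9 fold changes had a median of 0.51 on the log2 scale, against -0.01 over all genes. On the enriched diet the same 7 genes passed, where 14.4% of all genes tested were called higher, and the median of the 9 was 0.64, against -0.01 over all genes. In both diets Phgdh and Got1 were the 2 genes that missed the threshold, though Phgdh passed on the enriched diet in 14 of 28 alternatives. None was lower in mutants, where 2.83% of all genes were called lower on the moderate diet and 16.8% on the enriched diet. As the 9 genes were chosen with earlier results of these data known, these shares give a background and are no test of the set. In bulk tissue, more RNA per cell and more cells of a type that makes it cannot be told apart.

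In the serine pathway, Psat1 and Psph rose in mutants on both diets, and Phgdh missed the threshold on both, narrowly on the enriched diet. Phgdh, the dehydrogenase of the first step, stood at 118, 132, 100.1 and 116 CPM in moderate mutants, against 94.4, 102, 91.1 and 110.3 CPM in moderate wild type. With the enriched diet its level was 132, 126, 123 and 102 CPM in mutants, against 107, 91.6, 109 and 84.4 CPM in wild type. Groups overlapped on both diets, and the log2 fold change was 0.23 ± 0.10 (SE, 95% interval 0.01 to 0.45, adjusted p = 0.194) on the moderate diet and 0.28 ± 0.11 (interval 0.06 to 0.51, adjusted p = 0.0550) on the enriched diet. On the enriched diet Phgdh lay at the threshold and passed in 14 of 28 alternatives. Among them were DESeq2 (adjusted p = 0.0292) and the fit without the sex term (adjusted p = 0.0385). The adjusted p ranged from 0.0222 to 0.141 over all 28. The 14 include the main fit read at a threshold of 0.1, which its adjusted p of 0.0550 could not miss.

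Psat1, the aminotransferase of the second step, had the highest CPM of the 9 genes. It stood at 645, 715, 449 and 599 CPM in moderate mutants, against 432, 448, 373 and 437 CPM in moderate wild type. Replicate 2 was the highest mutant, and replicate 3 was the lowest and lay barely above the highest wild type library, so the groups did not overlap. The log2 fold change was 0.51 ± 0.13 (adjusted p = 0.0249), a call that held in 20 of 28 alternatives. Among enriched embryos Psat1 stood at 654, 659, 645 and 486 CPM in mutants, against 423, 368, 424 and 333 CPM in wild type. Enriched mutant replicate 4 was clearly below the other 3 mutants, and again no library overlapped (log2 fold change 0.64 ± 0.13, adjusted p = 0.00269).

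Psph removes the phosphate in the last step to serine. It stood at 40.1, 40.05, 28.2 and 35.5 CPM in moderate mutants, against 26.0, 27.8, 23.9 and 28.7 CPM in moderate wild type, where replicate 3 of the mutants lay inside the wild type range (log2 fold change 0.43 ± 0.12, adjusted p = 0.0408). This call was lost in 12 of 28 alternatives, with limma-voom (adjusted p = 0.0642) and in 9 of the 16 fits that left out a library among them, and the adjusted p ranged from 0.00457 to 0.633. In enriched embryos it stood at 43.3, 46.4, 37.0 and 33.6 CPM in mutants, against 29.7, 26.5, 28.2 and 24.8 CPM in wild type. These 2 groups did not overlap (log2 fold change 0.56 ± 0.12, adjusted p = 0.00378). Psph shares 452 exon bases with Cct6a on the opposite strand, and the library kit keeps no strand, so reads there cannot be assigned with certainty.

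Of the 3 genes that make asparagine, aspartate and alanine, Asns and Gpt2 rose more than 2-fold in moderate mutants and more than 3-fold in enriched mutants, and Got1 passed on neither diet. Asns, which builds asparagine from aspartate with the amide nitrogen of glutamine, stood at 215, 213, 100.5 and 230.0 CPM in moderate mutants, against 94.2, 93.1, 81.8 and 88.9 CPM in moderate wild type. Replicate 3 reached less than the other 3 mutants by a wide gap, yet it lay above all 4 wild type libraries. The fold change was 2.11 (log2 1.08 ± 0.19, adjusted p = 0.00305). Among enriched embryos Asns stood at 301, 302, 233 and 238 CPM in mutants, against 102, 79.2, 92.1 and 72.2 CPM in wild type. Every enriched mutant lay more than 2-fold above every wild type library (fold change 3.15, log2 1.65 ± 0.20, adjusted p = 9.59e-05).

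Gpt2, the mitochondrial alanine aminotransferase, stood at 113, 95.9, 41.0 and 116 CPM in moderate mutants, against 37.6, 43.1, 37.7 and 42.1 CPM in moderate wild type. Replicate 3 lay inside the wild type range and the other 3 mutants more than 2-fold above it (log2 fold change 1.17 ± 0.22, adjusted p = 0.00378). At the higher folic acid level it stood at 129, 159, 100.2 and 145 CPM in mutants, against 44.8, 37.3, 40.5 and 45.3 CPM in wild type, without overlap (fold change 3.30, log2 1.72 ± 0.22, adjusted p = 0.000139). Got1, the cytosolic aspartate aminotransferase, stood at 103, 121, 88.8 and 102 CPM in moderate mutants, against 103, 80.6, 81.9 and 88.4 CPM in moderate wild type. With enriched feed it stood at 113, 107, 107 and 93.3 CPM in mutants, against 98.8, 84.7, 92.1 and 84.6 CPM in wild type. Groups of Got1 overlapped on both diets, with log2 fold changes of 0.23 ± 0.10 (interval 0.02 to 0.44, adjusted p = 0.170) and 0.21 ± 0.10 (interval -0.01 to 0.42, adjusted p = 0.130).

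In the proline pathway both enzymes rose on both diets, Pycr1 more than Aldh18a1 by the size of the estimates. Aldh18a1, which makes the precursor pyrroline-5-carboxylate from glutamate, stood at 249, 251, 194 and 230.0 CPM in moderate mutants, against 158, 199, 146 and 178 CPM in moderate wild type. Replicate 3 of the mutants and replicate 2 of the wild type overlapped (log2 fold change 0.44 ± 0.10, adjusted p = 0.0111), and the call held in 24 of 28 alternatives. In the enriched families it stood at 243, 274, 248 and 233 CPM in mutants, against 156, 168, 159.6 and 153 CPM in wild type, without overlap (log2 fold change 0.64 ± 0.10, adjusted p = 0.000423).

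Pycr1, the mitochondrial reductase that completes proline, stood at 36.9, 30.4, 18.7 and 36.6 CPM in moderate mutants, against 13.3, 15.98, 13.1 and 17.2 CPM in moderate wild type. For the enriched diet its values were 40.2, 50.02, 37.1 and 42.6 CPM in mutants, against 14.7, 14.0, 17.1 and 13.8 CPM in wild type. No library overlapped on either diet, and replicate 3 was again the lowest of the moderate mutants. The fold change was 2.03 (log2 1.02 ± 0.17, adjusted p = 0.00161) on the moderate diet and 2.92 (log2 1.55 ± 0.17, adjusted p = 5.74e-05) on the enriched diet.

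Pck2, the mitochondrial carboxykinase that turns oxaloacetate into phosphoenolpyruvate, rose most of the 9 genes on both diets by its estimate. It stood at 79.6, 71.2, 22.5 and 85.8 CPM in moderate mutants, against 23.6, 21.8, 19.8 and 22.6 CPM in moderate wild type, so that 3 mutants lay more than 3-fold above wild type and replicate 3 lay within it (log2 fold change 1.54 ± 0.28, adjusted p = 0.00336). Under the enriched diet it reached 108, 121, 68.0 and 107 CPM in mutants, against 26.6, 19.4, 21.1 and 22.7 CPM in wild type. Replicate 3 was the lowest enriched mutant, still far above all wild type libraries (fold change 4.68, log2 2.23 ± 0.29, adjusted p = 0.000145). Pck2 lies on the same chromosome as Ift88, 1.873 Mb from it (Pck2 at chr14:55540266-55551242 and Ift88 at chr14:57424062-57517936, GENCODE vM21 on mm10). A part of linked sequence in the rise of Pck2 was not tested. Pck2 shares 53 exon bases with Gm10876 on the opposite strand.

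**Figure D2:**
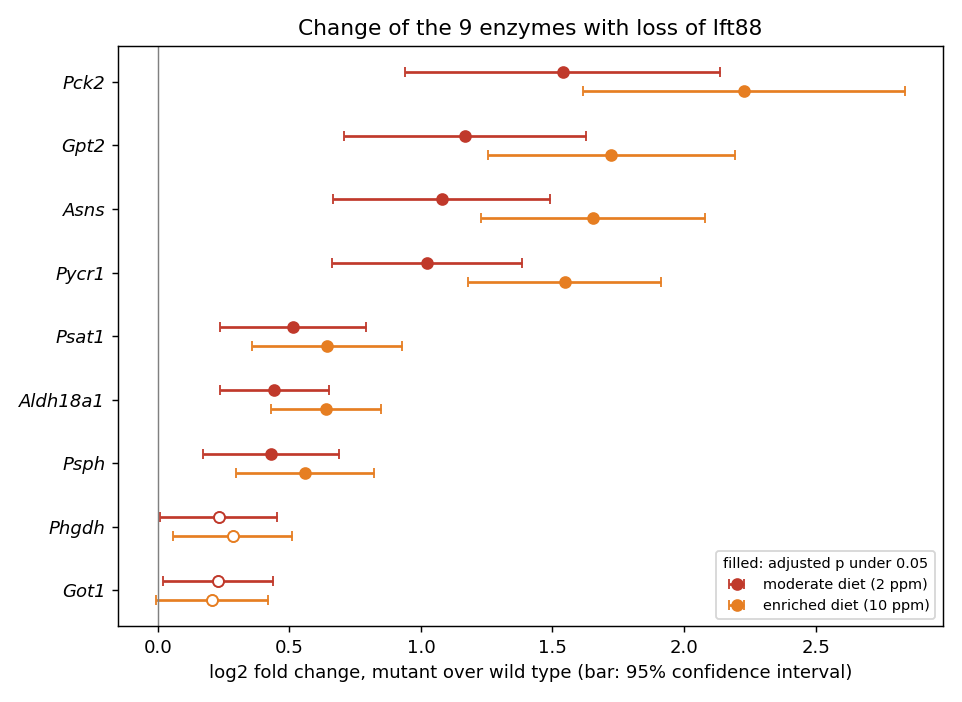
Log2 fold change of each gene, mutant over wild type (horizontal axis), with its 95% confidence interval from the edgeR fit, for the moderate and the enriched diet; filled points passed an adjusted p of 0.05. Pck2 is largest with 1.54 and 2.23, and Phgdh and Got1, the open points, lie between 0.21 and 0.28.

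On the moderate diet fewer of the 9 genes separated the libraries fully than passed the test, and on the enriched diet as many did. Of the 9, 3 did not overlap on the moderate diet (Asns, Psat1 and Pycr1), where 8.5% of all genes tested had every mutant above every wild type library, and 7 did not overlap on the enriched diet, where 11.2% of all genes did. Averaged over both diets all 9 genes passed, with log2 fold changes of 0.22 for Got1 (adjusted p = 0.0246) and 0.26 for Phgdh (adjusted p = 0.0143) up to 1.88 for Pck2 (adjusted p = 7.8e-06), and 17.4% of all genes tested passed as higher. Psat1 and Pycr1 alone of the 9 had all 8 mutant libraries above all 8 wild type libraries, which 2.51% of all genes did.

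Moderate mutant replicate 3 lay close to wild type for most of the 9 genes. On the log2 scale it had moved 2.23% of the way from the mean of moderate wild type to the mean of the other 3 moderate mutants for Pck2, 2.36% for Gpt2, 4.01% for Got1, 4.61% for Phgdh, 13.0% for Asns, 14.4% for Psat1, 16.3% for Psph, 27.7% for Pycr1 and 37.4% for Aldh18a1. All 9 genes were closer to wild type in it than to the other moderate mutants. Without this library the log2 fold change on the moderate diet was 1.84 for Pck2, 1.42 for Gpt2, 1.30 for Asns, 1.21 for Pycr1, 0.65 for Psat1, 0.54 for Psph and 0.53 for Aldh18a1, and Got1 passed as well at 0.31 (adjusted p = 0.0395), which made 8 of 9. Phgdh was 0.31 (adjusted p = 0.0590), and 1220 of 14477 genes tested were called higher in that fit. Leaving out the 3 libraries with a contradicted sex label instead removed 2 of the other mutants and 1 wild type library, and then none of the 9 passed on the moderate diet (edgeR, 1417 genes at an unadjusted p under 0.05 and 105 passing in all). The log2 fold change was then 1.35 for Pck2, 1.06 for Gpt2, 0.94 for Pycr1 and 0.90 for Asns, with adjusted p-values of 0.188, 0.176, 0.108 and 0.196. With only the moderate libraries in the fit, and likewise without moderate mutant replicate 1 or without moderate wild type replicate 3, 4 of the 9 passed on this diet: Asns, Pck2, Pycr1 and Gpt2. Of all genes tested, 451 of 14045, 360 of 14490 and 372 of 14501 were called higher in these fits in turn. On the enriched diet the 7 calls stood with and without all of these libraries.

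Within single mutant libraries the same gene mostly led. Set against the mean of the 4 wild type libraries on its diet, Pck2 was the most raised gene in 7 of 8 mutant libraries, by 1.60 to 2.43 on the log2 scale. In those 7 libraries Pck2, Gpt2, Asns and Pycr1 each lay at least 1.04 above wild type, and the other 5 genes reached at most 0.78, a split noticed after the values were seen. All 9 genes lay above the wild type mean in all 8 mutant libraries. In moderate mutant replicate 3 the largest value was 0.34, for Pycr1, and the median of the 9 was 0.09, against medians of 0.51 to 0.78 in the other 7 mutants.

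**Figure D3:**
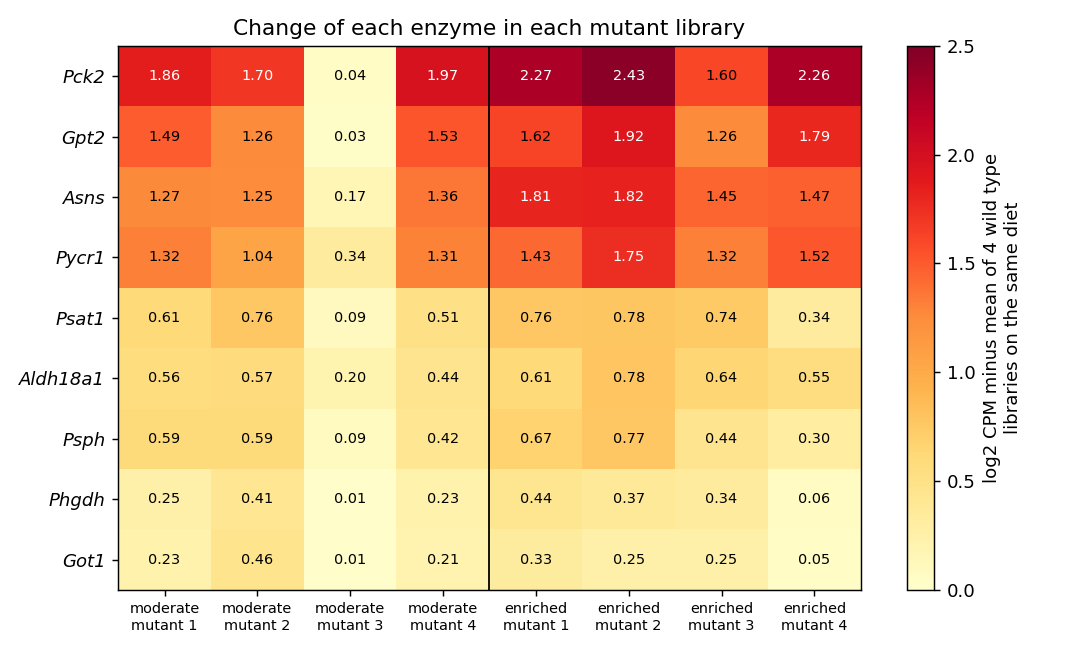
Difference in log2 CPM of each gene (rows) in each mutant library (columns) from the mean of the 4 wild type libraries on the same diet, with the value printed and coloured on a scale from 0 to 2.5. The upper 4 rows stand apart from the lower 5 in every column except moderate mutant 3, where the values lie between 0.01 and 0.34.

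Likeness of the genes over all 16 libraries was measured as the root mean square difference of centred log2 CPM. The closest pairs of the 9 were Phgdh with Got1 at 0.11, Psph with Aldh18a1 at 0.11 and Psat1 with Psph at 0.12. Asns was nearest to Pycr1 at 0.16, and Pycr1 with Gpt2 stood at 0.18. Pck2 and Got1 were farthest apart at 0.90. Among 12310 genes outside the 9, those nearest to Asns over the 16 libraries were Arrdc3 at 0.13, Slc1a4 and Maff at 0.18, and Glipr2 and Dok5 at 0.19, where Asns itself varied by 0.75. Slc1a4 is a transporter of serine, alanine and other neutral amino acids. Nearest to Phgdh were Yars at 0.07, Ghitm at 0.07, Acaa2 at 0.07, Sccpdh at 0.07 and Ift52 at 0.08, where Phgdh itself varied by 0.19.

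Diet alone did not move any of the 9 genes past the threshold. In wild type heads the log2 difference, enriched minus moderate, lay between -0.10 and 0.05, with 95% intervals reaching from -0.75 to 0.55 and adjusted p-values of 0.967 and above, and 0% of all genes tested passed. At an unadjusted p under 0.05 none of the 9 stood out in wild type, where 354 genes or 2.44% of all did, and DESeq2 called 1 gene of all and limma-voom 0. In mutant heads all 9 estimates were above 0, from 0.03 for Got1 to 0.58 for Pck2, and again none passed and 0% of all genes did. The 4 genes Asns (0.49 ± 0.19), Gpt2 (0.48 ± 0.22), Pck2 (0.58 ± 0.28) and Pycr1 (0.43 ± 0.17) had an unadjusted p under 0.05, as did 1565 genes or 10.8% of all, and the lowest adjusted p of the 9 was 0.442. Libraries of enriched mutants lay above all moderate mutants for Asns and Pycr1, which 1.46% of all genes did. DESeq2 called 3 genes of all in mutants, none of them among the 9, and limma-voom 0. Without moderate mutant replicate 3 the difference was 0.31 for Asns, 0.28 for Gpt2, 0.34 for Pck2 and 0.29 for Pycr1, and Psat1 and Got1 turned to -0.07 and -0.03.

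Whether the effect of Ift88 loss differed between the diets was tested as an interaction, and none of the 9 genes passed, as 0% of all genes did. The estimates, enriched minus moderate, ran from -0.02 for Got1 to 0.69 for Pck2, with intervals between -0.32 and 1.53. Pycr1 had the lowest p of the 9, with an estimate of 0.52 (interval 0.01 to 1.03, unadjusted p = 0.0463, adjusted p = 0.501), and 1401 genes or 9.65% of all reached an unadjusted p under 0.05. Asns was at 0.57 (interval -0.01 to 1.16), Gpt2 at 0.56 (interval -0.09 to 1.21) and Pck2 at 0.69 (interval -0.15 to 1.53). Neither DESeq2 nor limma-voom called any gene of all in this contrast. Without moderate mutant replicate 3 these estimates were 0.35 for Pycr1, 0.36 for Asns, 0.31 for Gpt2 and 0.40 for Pck2. A larger effect on the enriched diet was therefore not detected with 4 libraries a group. The intervals leave room for a difference of either sign in Asns, Gpt2 and Pck2.

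Pycrl, Gpt and Got2, which belong to the same enzyme families as Pycr1, Gpt2 and Got1, did not rise in mutants. Pycrl, the cytosolic reductase, averaged 73.0 ± 6.16 CPM in moderate mutants and 74.9 ± 3.76 CPM in moderate wild type (SD, n = 4 each; log2 fold change -0.04 ± 0.08, adjusted p = 0.834). It averaged 65.9 ± 4.14 CPM in enriched mutants and 81.2 ± 7.52 CPM in enriched wild type and fell there (log2 fold change -0.32 ± 0.08, adjusted p = 0.00859), a call that held in 28 of 28 alternatives.

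By CPM per kilobase Gpt2 made up 92.1 ± 4.82% of the alanine aminotransferases in moderate mutants and 82.0 ± 5.60% in moderate wild type, and 94.1 ± 1.91% in enriched mutants and 81.4 ± 1.94% in enriched wild type (SD, n = 4 each), with Gpt, the cytosolic form, making up the rest. Gpt did not pass the test, with log2 fold changes of -0.39 ± 0.21 (moderate, adjusted p = 0.293) and -0.11 ± 0.21 (enriched, adjusted p = 0.730). Got2, the mitochondrial partner of Got1, did not pass either, at 0.12 ± 0.08 (adjusted p = 0.417) and -0.07 ± 0.08 (adjusted p = 0.562). Got1 made up 53.0 ± 2.44% of this pair in moderate mutants and 51.1 ± 3.06% in moderate wild type, and 56.2 ± 0.604% in enriched mutants and 51.7 ± 1.56% in enriched wild type. Pck1, the cytosolic carboxykinase, had at most 1 count in any library and was not tested, so nearly all counts of the pair belonged to Pck2.

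**Figure D4:**
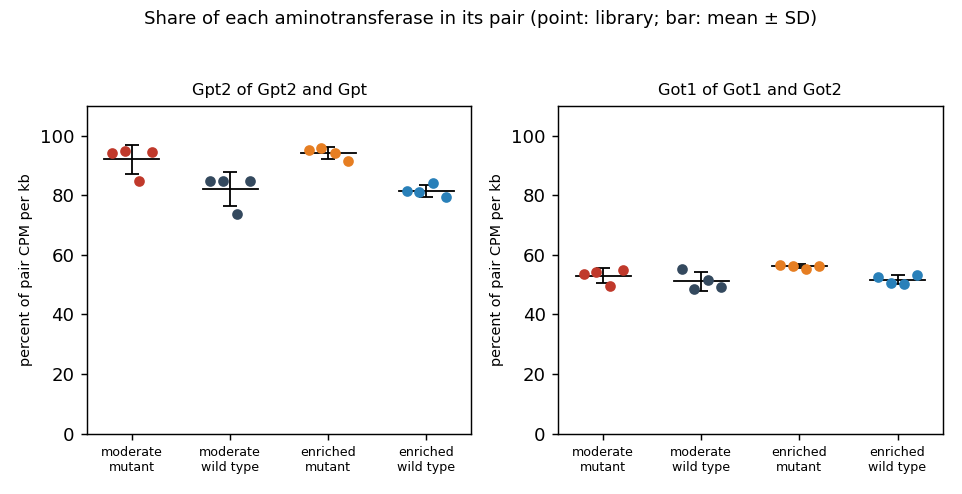
Share in percent of CPM per kilobase that Gpt2 takes of Gpt2 and Gpt, and Got1 of Got1 and Got2 (vertical axes, starting at 0), in the 4 groups; each point is a library and the bar shows the mean and SD of 4. Gpt2 stands at 84.9 to 95.8% in the mutant libraries and at 73.6 to 84.8% in the wild type libraries.

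Other genes of the same pathways were examined in lists that do not hold the 9. To be set beside their counts, 4.79% of all genes tested were higher and 2.83% lower on the moderate diet. On the enriched diet 14.4% were higher and 16.8% lower, for this list and those that follow. Among 9 tested genes of serine and glycine metabolism, 1 was higher on the moderate diet and 2 higher and 3 lower on the enriched diet, with medians of -0.00 and -0.18 on the log2 scale. Shmt2, which splits serine into glycine and a folate-bound carbon unit in mitochondria, rose on both diets. It averaged 349 ± 67.9 CPM in moderate mutants and 191 ± 11.4 CPM in moderate wild type, and 346 ± 27.7 CPM in enriched mutants and 208 ± 15.8 CPM in enriched wild type (SD, n = 4 each; log2 fold changes 0.86 ± 0.11 and 0.75 ± 0.11, adjusted p = 0.000225 and 0.000376). Srr, which makes D-serine, rose on the enriched diet (0.45 ± 0.13, adjusted p = 0.0142). Gldc of the glycine cleavage system fell there (-0.62 ± 0.11, adjusted p = 0.00118), as did Sdsl (-0.59 ± 0.16, adjusted p = 0.00993) and the glycine carrier Slc25a38 (-0.42 ± 0.11, adjusted p = 0.00779).

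Of the other genes of proline, ornithine and arginine metabolism, P4ha1 rose on both diets (1.20 ± 0.16 and 1.27 ± 0.16, adjusted p = 0.000184 and 0.00012). P4ha1 hydroxylates proline in collagen chains and is a known target of hypoxia. Aldh4a1, which degrades pyrroline-5-carboxylate to glutamate, fell on the enriched diet (-0.55 ± 0.10, adjusted p = 0.00116), as did Pycrl. Of 10 tested genes of glutamate, aspartate, asparagine and alanine metabolism, with medians of 0.10 and -0.01, the glutaminase Gls2 rose on both diets (0.92 ± 0.19 and 0.81 ± 0.19, adjusted p = 0.0068 and 0.00505) and Asnsd1 on the moderate diet (0.40 ± 0.12, adjusted p = 0.0475).

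Of 7 tested pyruvate and oxaloacetate enzymes beside Pck2, with medians of 0.03 and -0.09, the malic enzyme Me2 rose on the moderate diet (0.32 ± 0.09, adjusted p = 0.0289). Pyruvate carboxylase Pcx rose on the enriched diet (0.29 ± 0.08, adjusted p = 0.00865) and the citrate lyase Acly fell there (-0.33 ± 0.08, adjusted p = 0.00752). Of 6 tested branched-chain, cysteine and aromatic amino acid enzymes, with medians of 0.31 and 0.11, Bcat1 rose on both diets (0.36 ± 0.09 and 0.37 ± 0.09, adjusted p = 0.0167 and 0.00538), as did Cth, which releases cysteine from cystathionine (0.44 ± 0.12 and 0.59 ± 0.12, adjusted p = 0.0299 and 0.00212). Cbs, the step before Cth, rose on the enriched diet (0.95 ± 0.22, adjusted p = 0.00466) and the mitochondrial Bcat2 fell there (-0.28 ± 0.08, adjusted p = 0.0162). All of these are edgeR values adjusted over all genes, and the calls on the moderate diet other than those of Shmt2 and P4ha1 did not hold under every alternative. On the enriched diet 3 of the 4 calls among the branched-chain, cysteine and aromatic enzymes held under every alternative.

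Regulators of the amino acid response were higher in part. Of 18 tested, 4 were higher and 1 lower on the moderate diet, where 4.79% of all genes were higher and 2.83% lower. On the enriched diet 9 were higher and 1 lower, where 14.4% of all genes were higher and 16.8% lower. The medians were 0.17 and 0.30. Atf4 averaged 226 ± 42.4 CPM in moderate mutants and 172 ± 10.9 CPM in moderate wild type, which did not pass (log2 fold change 0.40 ± 0.12, adjusted p = 0.0589), and 266 ± 34.3 CPM in enriched mutants and 183 ± 19.5 CPM in enriched wild type, which did (0.57 ± 0.13, adjusted p = 0.00406). Its activity is largely set at translation, which these counts do not measure. Trib3, an Atf4 target that feeds back on it, rose by 2.96 ± 0.57 on the moderate diet and 4.10 ± 0.60 on the enriched diet (adjusted p = 0.00475 and 0.000299). Ddit3 rose by 1.10 ± 0.27 and 1.92 ± 0.27 (adjusted p = 0.0196 and 0.000225), Cebpb by 1.04 ± 0.29 and 1.74 ± 0.29 (adjusted p = 0.0398 and 0.000651), and the demethylase gene Kdm4c by 0.57 ± 0.12 and 0.88 ± 0.12 (adjusted p = 0.00816 and 0.000215). Eif2ak1, a kinase that phosphorylates the translation factor upstream of Atf4, was the gene that fell (-0.34 ± 0.09 and -0.56 ± 0.10, adjusted p = 0.0361 and 0.000767). All 5 moderate calls of this list were lost without the 3 libraries whose sex label was contradicted and 2 with only the libraries compared, while 9 of the 10 enriched calls held in every alternative.

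Known Atf4 targets outside amino acid synthesis rose as well, in a list chosen with earlier results of these data known. On the moderate diet 12 of 14 tested were higher, where 4.79% of all genes were. On the enriched diet 13 of 14 were, where 14.4% of all genes were, and the medians were 1.35 and 1.94. Of the 12 moderate calls 10 were lost without the 3 libraries whose sex label was contradicted and 4 with only the libraries compared, so that 2 held in every alternative, as did all 13 enriched calls. Slc7a11, the cystine carrier, passed on neither (0.02 and -0.07), and Nupr1 did not pass on the moderate diet (1.70 ± 0.75, adjusted p = 0.181). This list shares Ddit3, Nupr1 and Trib3 with the list of regulators. The score of this list, the mean of its centred log2 CPM, was -0.84 in moderate mutant replicate 3, 0.84 to 1.504 in the other 7 mutants and -1.09 to -0.73 in wild type. For the 9 enzymes the score was -0.32 in that library, 0.45 to 0.77 in the other 7 mutants and -0.57 to -0.32 in wild type. This mutant thus lay inside the wild type range for the Atf4 targets and just above its upper end for the enzymes.

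Hypoxia and glycolysis genes moved with the 9 enzymes too, all 18 of 18 being higher on both diets, P4ha1 among them. Of all genes tested, 4.79% were higher on the moderate diet and 14.4% on the enriched diet. This list too was chosen with earlier results of these data known. In every alternative 12 of the moderate and 17 of the enriched calls held, and the other 6 moderate calls were lost without the 3 libraries whose sex label was contradicted. Their summed level was 9183 to 15576 CPM in moderate mutants, against 5425 to 6063 CPM in moderate wild type, and 10347 to 13599 CPM in enriched mutants, against 6428 to 8093 CPM in enriched wild type. In moderate mutant replicate 3 their score of -0.10 lay between the other mutants (0.91 to 1.29) and wild type (-1.21 to -0.61). Their part in the rise of the enzymes was not tested.

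Markers of other cell types were set beside the enzymes in the same way. Of all genes tested, 4.79% were higher and 2.83% lower on the moderate diet, and 14.4% higher and 16.8% lower on the enriched diet. Over both diets 2683 of the 14514 genes tested were lower. All 9 tested erythroid markers had estimates below 0 on both diets (medians -0.97 and -0.58), of which 1 passed on the moderate diet, 2 on the enriched diet and 4 over both diets. Their summed level was 1251 to 3398 CPM in moderate mutants, against 2477 to 6546 CPM in moderate wild type, and 723 to 3598 CPM in enriched mutants, against 1522 to 3840 CPM in enriched wild type. Their score in moderate mutant replicate 3 was 0.56, inside the wild type range (-0.47 to 1.48) and above the other 7 mutants (-1.64 to 0.23). The moderate erythroid call did not hold in every alternative, and 1 of the 2 enriched calls did. Of 7 endothelial markers, Flt1 and Pecam1 rose on both diets and Tek and Tie1 fell on the enriched diet, with sums of 347 to 419.9 CPM in mutants and 310.4 to 381 CPM in wild type. Neither moderate endothelial call held in every alternative, and 3 of the 4 enriched calls did. None of 8 yolk sac and visceral endoderm markers passed, with sums of 5.93 to 37.2 CPM in 7 mutants, 131 CPM in enriched mutant replicate 4 and 10.1 to 31.7 CPM in wild type, and up to 2 of the 8 at 0 in a library. None of 5 tested heart muscle markers passed on either diet (1 and 2 at an unadjusted p under 0.05) and 1 fell over both diets, with sums of at most 8.85 CPM in any library. Their score in moderate mutant replicate 3 was 0.47, against -0.95 to 0.09 in the other 7 mutants and -0.04 to 0.62 in wild type. Of 3 tested genes listed for decidua and placenta, Cd34 fell on both diets and Prl8a2 rose on the enriched diet. Cd34 is not particular to those tissues, being made in endothelial and blood progenitor cells too. Sums over the list were 52.8 to 69.1 CPM in 7 mutants and 251 CPM in enriched mutant replicate 3, against 78.2 to 95.05 CPM in wild type. Prl8a2 rested on that library, with 188.6 CPM in it and at most 3.46 CPM in the other 15, and the moderate call of Cd34 held in 9 of 28 alternatives. The part of such cells in the change of the enzymes was not tested.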

How the data were processed

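Heads of 16 mouse embryos were sequenced by mRNA-seq, with 4 libraries in each of 4 groups. The deposited values are raw counts per gene, made by the authors with FastQC 0.11.5, TopHat2 2.1.1, SAMtools 1.8 and HTSeq 0.9.1 on mm10, per the submitters' processing notes, which also name DESeq2 1.22.2. No source used here gives the gene annotation or the strand setting of the counting. The labels' protocols name the TruSeq RNA kit, version 2; this kit keeps no strand, so reads from overlapping genes on opposite strands cannot be told apart. HTSeq's 5 summary lines were left out of library totals; they held 13.7 to 17.0% of reads without a feature and 1.20 to 1.39% ambiguous reads.

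Of 24421 genes, 14514 (59.4%) reached 10 counts in 4 or more libraries and were fitted with edgeR 4.0.16 in R 4.3.3 by the quasi-likelihood test, with TMM scaling, all 16 libraries, a term per group and the labelled sex. The adjusted p is Benjamini-Hochberg over all genes tested, with a threshold of 0.05, and each SE was obtained as the absolute estimate over the square root of F. CPM uses TMM-scaled totals, log2 CPM a prior count of 2, and values per kilobase the union of exons in GENCODE vM21. Likeness was taken over genes averaging at least 1 CPM. The fit was tested on simulated counts. Alternatives were DESeq2 1.42.0, limma-voom (limma 3.58.1), other scaling and filters, other treatment of sex, a replicate block, only the libraries compared and libraries left out. The main fit read at an adjusted p of 0.1 was counted among them, and a gene called at 0.05 cannot fail there. The 9 genes and all lists were chosen with earlier results of these data known. Genes named outside the 9 were list members past the threshold (otherwise at most 4 a list, by smallest p), paralogs, Ift88 and the 5 nearest to Asns and to Phgdh; Atf4, Slc7a11 and Nupr1 on the moderate diet were named after their values were seen. Counting error is small at this depth, and the 4 libraries per group limit the precision. The smallest difference between replicates of a group was 7.19 chi-square units per gene over 24 pairs, so no library was counted as a repeat of another. Some results on proline synthesis, and the counts that include them, are not reported here.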

Additional observations from a re-analysis of the deposited data

Results flagged for a closer look

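In 40 sets of 4 libraries, those of each of the 9 genes and of Ift88 in each group, Dixon's test at its 95% critical value picked out 3 single libraries, where chance picks about 1 in 20. Asns in moderate mutant replicate 3 was 100.5 CPM, with the next mutant at 212.6 CPM, a gap of 0.866 of the group's range. Psat1 in enriched mutant replicate 4 was 486.3 CPM, with the next at 645.2 CPM, a gap of 0.919 of the range. Ift88 in moderate wild type replicate 2 was 9.30 CPM, with the next at 19.9 CPM, a gap of 0.914 of the range. The causes were not tested.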

How the results depend on the processing

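On the enriched diet the 7 calls held in 28 of 28 alternatives, and leaving out each library in turn gave 7 to 8 calls. On the moderate diet the count of 7 was 4 (Asns, Pck2, Pycr1 and Gpt2) with only the libraries compared, and 4 to 8 with each library left out; it was 4 without moderate mutant replicate 1 or without moderate wild type replicate 3. It was 0 without the 3 libraries whose sex label was contradicted, which leaves 2 moderate mutants, and the cause was not tested. With sex read from the counts and all libraries kept, the same 7 genes passed on the moderate diet, among 1080 genes called in all. Averaged over both diets 9 genes passed with each library left out, and none passed in the diet and interaction contrasts. Over all genes the moderate count of 1106 was 1572 with DESeq2, 719 with only the libraries compared, 1906 at an adjusted p of 0.1, 1675 without moderate mutant replicate 3 and moderate wild type replicate 2, 105 without the 3 libraries and 538 to 2107 with each library left out; the count over both diets of 5202 was 2964 without the 3 libraries. Whether the replicate numbers pair the libraries was not settled by the counts. Same-numbered libraries of different groups correlated at -0.291 to 0.505, 8 of 24 pairs over 0.1, and 5 of 16 libraries correlated best with their own number. The value of 0.505, between enriched mutant and enriched wild type replicate 4, was the highest of any pair from different groups. With the replicate number as a block the members' counts were 7 on the moderate diet, 7 on the enriched diet and 9 over both, against 1453, 4979 and 5645 of all genes. Single values changed sign 45 times, all uncalled log2 differences of at most 0.13 between diets. For enriched minus moderate wild type they were, for Phgdh, -0.0024 with limma-voom, -0.0233 without the sex term, -0.0260 with sex read from counts, -0.0027 with the block and -0.0159 with only the libraries compared; for Pck2 0.0313 without the sex term and 0.0057 with only the libraries compared; for Gpt2 0.0640, 0.0095 with sex from counts, 0.0323 with only the libraries compared and 0.0086 without the 2 libraries above; for Aldh18a1 0.0043 with only the libraries compared, 0.0121 without the 3 libraries and 0.0025 without the 2; and for Pycr1 0.0249 with only the libraries compared. Without the 2 libraries, enriched minus moderate mutants was -0.0692 for Psat1 and -0.0232 for Got1, and the interaction was -0.0178 for Phgdh and -0.0128 for Psat1; without the 3 the interaction of Got1 was 0.167. With each library left out, log2 differences that reversed in any alternative ran, for the interaction, from -0.0867 to 0.0799 for Got1, -0.0102 to 0.142 for Phgdh and 0.00876 to 0.247 for Psat1; in mutants from -0.0256 to 0.115 for Got1 and -0.0682 to 0.130 for Psat1; and in wild type from -0.00626 to 0.119 for Got1, -0.0590 to 0.0792 for Phgdh, -0.0869 to 0.0622 for Psph, -0.201 to -0.00918 for Aldh18a1, -0.249 to -0.0283 for Gpt2, -0.299 to -0.0552 for Pck2 and -0.266 to -0.00907 for Pycr1. Of 132 other named genes, 16 of 44 calls on the moderate diet and 55 of 64 on the enriched diet held in every alternative, and none reversed.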
